A study of Mus musculus with 6 samples.

Results

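The genes described here are 10 genes of the CXC chemokine system of the lung, chosen by name, and their transcripts were measured in mouse lung 30 h after LPS. They comprise 5 chemokines of the ELR type (Cxcl1, Cxcl2, Cxcl3, Cxcl5 and Cxcl15), 3 homeostatic chemokines (Cxcl12, Cxcl13 and Cxcl14), the receptor Cxcr4 and the decoy receptor Ackr1. Probes were assigned through their transcript accessions. The 10 genes had 14 probes, and the brightest probe of each gene was used. All 10 were above background on each of the 6 arrays, and they were 10 of the 16361 genes tested.

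The animals were male C57BL6 mice, 10 weeks old, which were starved for 16 h and then received LPS (20 mg·kg−1) i.p. One group was given saline and the other recombinant human thrombomodulin (rhTM, a soluble form of an endothelial anticoagulant receptor, at a dose given in the methods as 30 mg·kg−1), in each case 3 h and 24 h after LPS. Both groups therefore carried endotoxaemia, and lungs without LPS were not analysed here. There were 3 mice in each group, with 1 single-colour Agilent array per mouse, and the number of arrays limits the precision of every value.

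ELR chemokines carry a glutamate-leucine-arginine motif before their first cysteines and draw neutrophils out of the blood, most of them through the receptor CXCR2. In the lung they are made by epithelium, endothelium, fibroblasts and macrophages, and most of them are induced within hours by endotoxin, interleukin-1 and tumour necrosis factor through NF-κB. The homeostatic chemokines lack that motif. CXCL12 holds CXCR4-bearing cells, including neutrophils, in marrow and lung, and CXCL13 guides B cells. ACKR1, on venules and red cells, binds many chemokines without signalling.

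The promoters of Cxcl1, Cxcl2 and Cxcl3 are shown first, since these 3 neighbouring genes of chromosome 5 share a run of letters, and Cxcl1 varied across the arrays unlike Cxcl2 and Cxcl3. The 120 bases before each gene start are given 5′ to 3′ from RefSeq (GRCm38.p6), with the longest run of letters that all 3 share, GGGAATTTCCC, in capitals. These 11 letters include a classical κB site, the kind of sequence that NF-κB binds. The 120-base stretches lie at chr5:90891125-90891244 (Cxcl1), chr5:90903779-90903898 (Cxcl2) and chr5:90785981-90786100 (Cxcl3), all on the + strand.
Cxcl1: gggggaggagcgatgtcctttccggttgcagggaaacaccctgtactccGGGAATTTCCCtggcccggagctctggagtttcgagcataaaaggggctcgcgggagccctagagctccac
Cxcl2: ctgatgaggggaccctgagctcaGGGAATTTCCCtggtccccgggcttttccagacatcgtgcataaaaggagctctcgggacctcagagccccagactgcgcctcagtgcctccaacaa
Cxcl3: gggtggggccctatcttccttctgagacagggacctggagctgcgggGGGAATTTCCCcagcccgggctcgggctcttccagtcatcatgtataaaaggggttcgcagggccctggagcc
The match began 71 bases before the start of Cxcl1, 97 before that of Cxcl2 and 73 before that of Cxcl3. On either strand, these 11 letters were found in the 250 bases before the start for 14 of 32851 promoters, 0.0426% of the table, and the letters were chosen on the 3 genes shown. No match was found in that window of Cxcl15, Cxcl12, Cxcl13, Cxcl14, Cxcr4 or Ackr1. Cxcl5 was without an entry. A match describes these letters and is not evidence of binding.

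The assignment of arrays to mice was uncertain for 2 of the 6 arrays. The authors deposited scanner output and also a table of processed values, and the table exchanges saline replicate 1 with rhTM replicate 2, so that each of these columns matched the scanner output of the other at 99.9% of probes, counting values within 0.1% of each other as equal. The labels do not settle which is right. Values below follow the scanner output unless the table is named, and each member's fold change is given under both. The arrays were on 2 slides, of which slide 2 held saline replicate 1 and rhTM replicate 3 by the scanner output, and rhTM replicates 2 and 3 by the table. The array of rhTM replicate 1 stood farthest from the others, as 4.61% of all genes differed from the median of the other arrays by more than 1 log2 unit there, against 0.715% to 2.58% on the other arrays. Saline replicate 1, an exchanged array with the lowest Cxcl3 and highest Cxcl1 level, also stood apart, with a slope of signal on spiked-in RNA amount, both on log scales, of 0.826 against 1.07 to 1.09 on the others and the most probes above background (40643), and the part of this in those levels was not tested. Of the cell markers of lung, 8 of 8 alveolar type 2, 4 of 5 alveolar type 1 and 5 of 5 club cell genes were tested, and the fifth alveolar type 1 gene had no matched probe.

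Without a term for the slide, and after adjustment over all 16361 genes, 0 of the 10 members differed between rhTM-treated and saline-treated lungs in limma's test, where 0% of all genes passed as higher and 0% as lower. The adjusted p was 0.99994 for each of them, and at least 0.379 by the table, where 0 of 10 also reached an unadjusted p under 0.05, against 6.95% of all genes as higher and 7.01% as lower. The mean was higher with rhTM for 6 of 10 members, against 50.7% of all genes, and for 8 of 10 by the table, against 46% of all genes in it. The members' log2 fold changes had a median of 0.11, or 0.28 in the table, and those of all genes 0.0026, or -0.02 in the table. Because whole lung was measured, fewer cells of a type and less RNA per cell cannot be told apart.

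**Figure D1:**
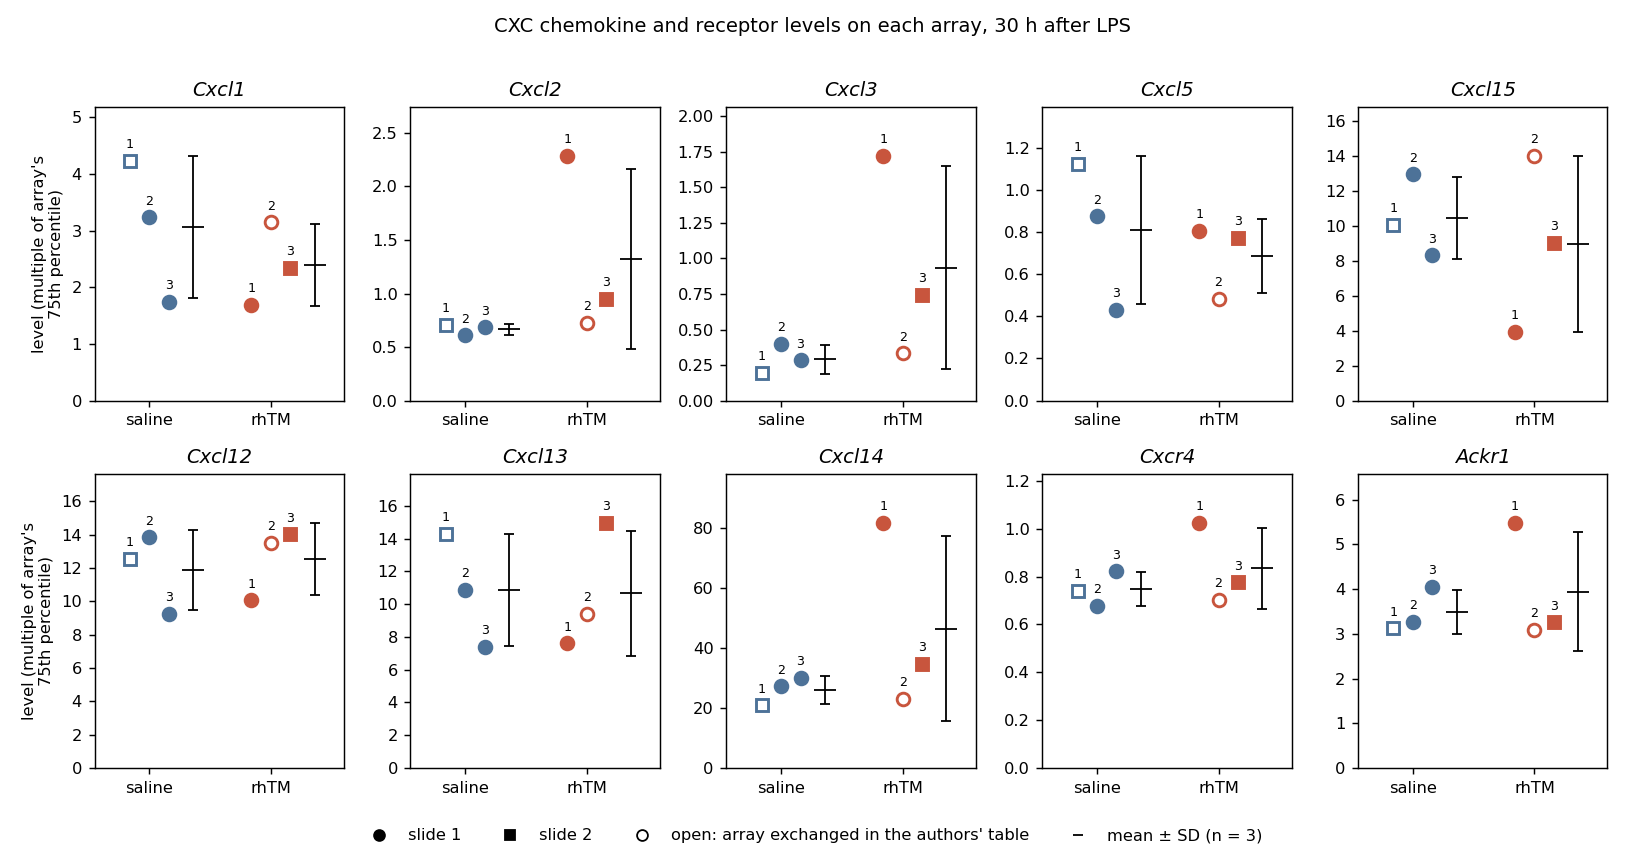
Level of each gene on each of the 6 arrays, as a multiple of that array's 75th percentile of signal (linear axis from 0), with the replicate number above each point. Circles are arrays of slide 1 and squares those of slide 2, open symbols are the 2 arrays exchanged in the authors' table, and bars are mean ± SD of 3 arrays; Cxcl2, Cxcl3 and Cxcl14 were highest on rhTM replicate 1, and Cxcl13 was highest on both squares.

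Among the ELR chemokines, Cxcl3 and Cxcl2 had higher means in the rhTM-treated lungs, and Cxcl1, Cxcl5 and Cxcl15 had lower means. Each level is a multiple of the 75th percentile of all signals on the same array. Cxcl3 encodes a ligand of CXCR2. It was at 0.194, 0.397 and 0.284 in saline replicates 1, 2 and 3, and at 1.72, 0.332 and 0.745 in rhTM replicates 1, 2 and 3. The groups overlapped through rhTM replicate 2, which lay below the highest saline lung, whereas replicates 1 and 3 lay above every saline lung. The means were 0.292 ± 0.102 with saline and 0.933 ± 0.714 with rhTM (SD, n = 3), and the log2 fold change was 1.43 (standard error 0.58, 95% confidence interval 0.04 to 2.82). Ordered by log2 fold change, Cxcl3 stood at place 5 of 16361 genes from the rhTM end, and at place 313 of 16312 by the table. It was also the sole member at an unadjusted limma p under 0.05, a level passed by 0.697% of all genes as higher and 1.17% as lower. With the slide as a block its unadjusted limma p was 0.068 and its interval, -0.15 to 3.00, included 0. No member had an unadjusted p under 0.05 with the replicate block, in the methods' t-test or with no filter. Without both exchanged arrays 2 of 10 members had such a limma p, where 1267 of 16452 genes did. Without rhTM replicate 2 it was 3 of 10, where 1403 of 16413 genes did. Without rhTM replicate 1 it was 0 of 10. For Cxcl3 the exact two-sided permutation test gave p = 0.2, where 3 arrays against 3 reach 0.10 at the least.

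The size of the Cxcl3 difference rested on rhTM replicate 1. Its level there was 5.19 times the median of the other arrays, and without it the log2 fold change was 0.83 (standard error 0.43, adjusted p = 0.99975 from limma). By the table the log2 fold change was 0.91 (standard error 0.73, adjusted p = 0.578), since the array with the lowest Cxcl3 level is then an rhTM lung, and without rhTM replicate 1, which leaves group and slide inseparable in the table, it was 0.19. Without both exchanged arrays it was 1.75 (standard error 0.44, adjusted p = 0.648), and the remaining 2 lungs of each group did not overlap, as held for 41.5% of all genes in that smaller comparison. Leaving out rhTM replicate 2 instead gave 2.02.

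Cxcl2 encodes macrophage inflammatory protein 2, an early neutrophil attractant of macrophages. Saline lungs were close together, at 0.706, 0.609 and 0.684, and the rhTM lungs were at 2.29, 0.725 and 0.953. Every rhTM lung was above every saline lung, by a narrow margin for rhTM replicate 2. Cxcl2 was the sole member without overlap, that is 1 of 10, and 2.95% of all genes were free of overlap in that direction and 2.57% in the other. The means were 1.32 ± 0.843 with rhTM and 0.666 ± 0.0505 with saline (SD, n = 3). This gave a fold change of 0.81 on the log2 scale (standard error 0.40, 95% confidence interval -0.15 to 1.76), with p = 0.10 in the exact permutation test, the smallest possible. The rhTM lungs varied far more among themselves than the saline lungs.

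As for Cxcl3, rhTM replicate 1 was far above the rest, at 3.24 times the median of the other arrays, and without it the log2 fold change of Cxcl2 was 0.32 (standard error 0.17). Without rhTM replicate 2 it was 1.15. By the table the log2 fold change was 0.78 (standard error 0.41, adjusted p = 0.425), and the exchanged arrays made the groups overlap. The groups also overlapped after normexp background correction, in which the log2 fold change was 0.70. When the slide was added to the fit of the table, Cxcl2 was the 1 member that passed the threshold, at 1.77 on the log2 scale (standard error 0.20, adjusted p = 0.0337 from limma), where 1.15% of all genes passed as higher and 1.5% as lower. Since slide 2 of the table holds no saline array, that value is the distance of rhTM replicate 1 alone from the 3 saline arrays.

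Cxcl1, also known as KC, encodes the major inducible neutrophil attractant of mouse tissue. It was at 4.23, 3.24 and 1.74 in the saline lungs and at 1.69, 3.15 and 2.34 in the rhTM lungs. The groups overlapped widely, and the array with the highest Cxcl2 and Cxcl3 levels, rhTM replicate 1, had the lowest level of Cxcl1. The log2 fold change was -0.31 (standard error 0.37, 95% confidence interval -1.19 to 0.57; exact permutation test, p = 0.5). By the table it was -0.03 (standard error 0.39, adjusted p = 0.980), and without saline replicate 1 it was -0.03 by the scanner output.

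Cxcl5 encodes LIX, a neutrophil attractant of lung epithelium and platelets. Saline lungs were at 1.12, 0.874 and 0.430 and rhTM lungs at 0.806, 0.484 and 0.772. The rhTM lungs lay within the range of the saline lungs. The sign of its difference depended on the assignment of the arrays. Its log2 fold change was -0.16 as scanned (standard error 0.38, 95% confidence interval -1.07 to 0.75) and 0.65 by the table (standard error 0.30, adjusted p = 0.379), where it was the member with the lowest adjusted p. Without both exchanged arrays it was 0.36 (standard error 0.36).

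Cxcl15, or lungkine, encodes an ELR chemokine found mainly in lung epithelium. It was at 10.1, 13.0 and 8.32 in the saline lungs and at 3.92, 14.0 and 9.02 in the rhTM lungs. The highest and the lowest level were both in rhTM lungs, and rhTM replicate 1 was at 0.390 times the median of the other arrays. The log2 fold change was -0.38 (standard error 0.45, 95% confidence interval -1.45 to 0.69; exact permutation test, p = 0.7). It was -0.70 by the table (standard error 0.39, adjusted p = 0.450), and 0.13 without rhTM replicate 1. The summed level of the club cell markers on rhTM replicate 1 was 0.996 times the median of the other arrays and that of the alveolar type 2 markers 0.908 times, and their part in the Cxcl15 value was not tested. Of 5 club cell genes 1 had a higher mean with rhTM, with sums of 893 to 952 in saline lungs and 745 to 1038 in rhTM lungs, and of 8 alveolar type 2 genes 1 had a higher mean, with sums of 1328 to 1799 and 1302 to 1677. In the table, 3 of 5 club cell and 5 of 8 alveolar type 2 genes had a higher mean, with club cell sums of 745 to 922 and 918 to 1038 and alveolar type 2 sums of 1328 to 1434 and 1302 to 1799. Scgb1a1, the club cell secretory protein gene, was without overlap and higher in the table alone, at 0.34, where 9.68% of all genes were so. Bpifa1, a club cell list gene for a secreted airway protein, was without overlap and lower with rhTM by the scanner output, at -0.96 on the log2 scale (standard error 0.30), and overlapped in the table. By the scanner output 2.57% of all genes were without overlap and lower.

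**Figure D2:**
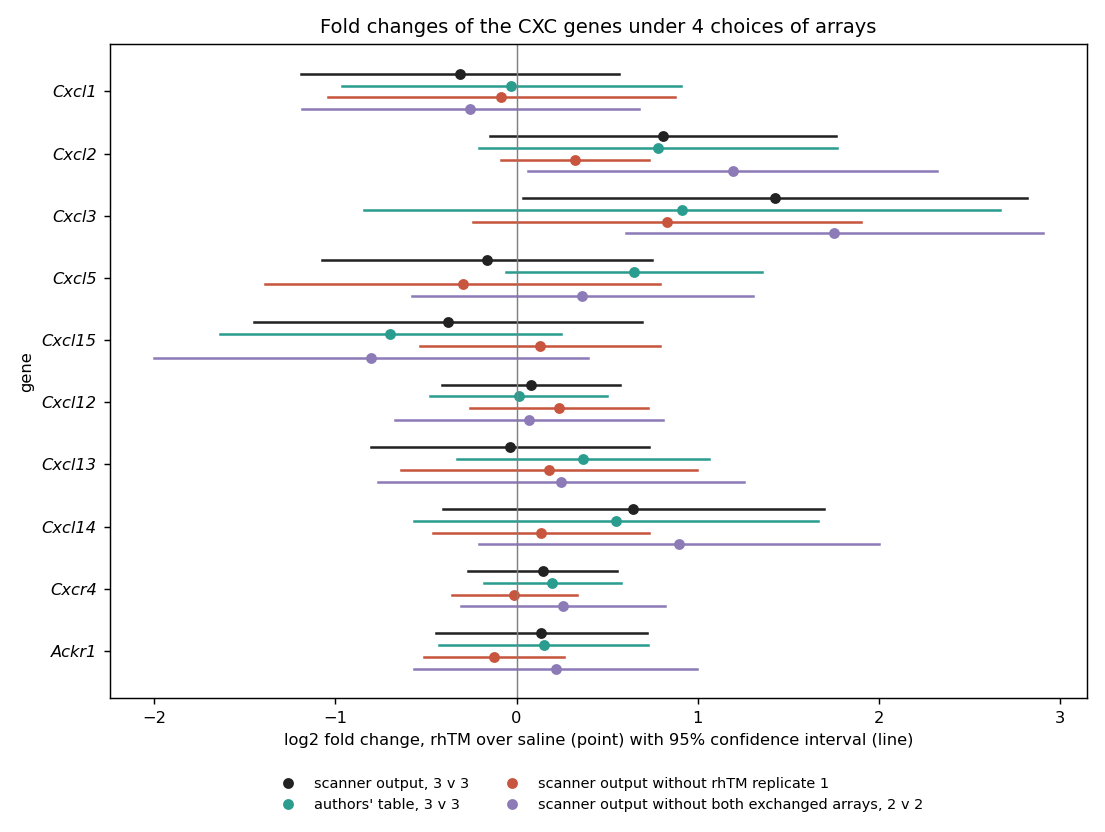
Log2 fold change of each gene, rhTM over saline, on the horizontal axis, with its 95% confidence interval from limma, for 4 choices of arrays (black, scanner output; green, authors' table; red, scanner output without rhTM replicate 1; purple, scanner output without both exchanged arrays). The interval excluded 0 for Cxcl3 by the scanner output and for Cxcl2 and Cxcl3 without both exchanged arrays, before any adjustment for the number of genes, and the point for Cxcl5 changed sides with the table.

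Of the homeostatic chemokines, Cxcl14 had a higher mean with rhTM, and Cxcl12 and Cxcl13 differed little in their means. Cxcl14 encodes BRAK, a chemokine of epithelium and fibroblasts. It was at 21.0, 27.3 and 30.1 in saline lungs and at 81.7, 23.2 and 34.7 in rhTM lungs. Only rhTM replicate 1 was far from the rest, at 3.00 times the median of the other arrays, and rhTM replicate 2 lay among the saline lungs. The means were 46.5 ± 31.0 with rhTM and 26.1 ± 4.67 with saline (SD, n = 3), and the log2 fold change was 0.64 (standard error 0.44, 95% confidence interval -0.41 to 1.70; exact permutation test, p = 0.4). Without rhTM replicate 1 it was 0.14, and in the authors' table it was 0.55 (standard error 0.46, adjusted p = 0.599), or 0.02 without that array. Leaving out rhTM replicate 2 gave 1.05 by the scanner output. The second probe of Cxcl14, for a predicted transcript, was above background on 2 arrays of each group and was not tested.

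Cxcl12, also known as SDF-1, was the ligand with the narrowest spread. Its levels were 12.6, 13.8 and 9.25 in saline lungs and 10.1, 13.5 and 14.0 in rhTM lungs, and the groups overlapped. The log2 fold change was 0.08 (standard error 0.21, 95% confidence interval -0.41 to 0.57) and 0.01 by the table (standard error 0.20, adjusted p = 0.985). Its second probe, for another transcript of the gene, gave 0.16 (standard error 0.20). The upper end of the first interval was a 1.49-fold higher level with rhTM. Markers of fibroblasts, which make CXCL12, had a higher mean with rhTM for 6 of 7 genes, with sums of 114 to 141 in saline lungs and 119 to 176 in rhTM lungs. In the table, 5 of 7 had a higher mean, with Dcn at 0.49 and Lum at 0.60 without overlap, as were 9.68% of all genes in that direction. Their part was not tested.

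Cxcl13, the B cell chemokine, was highest on both arrays of slide 2, which came from different groups. It was at 14.3, 10.9 and 7.41 in saline lungs and at 7.62, 9.42 and 14.9 in rhTM lungs. The 2 arrays of slide 2, saline replicate 1 and rhTM replicate 3, were above all 4 arrays of slide 1. With treatment as a term, slide 2 exceeded slide 1 by 0.74 on the log2 scale (standard error 0.19, adjusted p = 0.174 from limma), the largest such difference among the members, and 233 of 16361 genes (1.42%) passed the threshold for the slide. The log2 fold change for rhTM was -0.03 (standard error 0.32, 95% confidence interval -0.80 to 0.73), and with the slide as a block its standard error was 0.18. It was 0.37 by the table (standard error 0.29, adjusted p = 0.574), where slide 2 holds rhTM replicates 2 and 3 and no saline array. On slide 1 of the table the rhTM array, at 7.62, lay within the saline range of 7.41 to 10.9, and with the slide as a block the value was -0.26 (standard error 0.22, adjusted p = 0.465).

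Both receptors had slightly higher means with rhTM, by less than the spread of the rhTM lungs. Cxcr4, the receptor of CXCL12 on leukocytes and endothelium, was at 0.741, 0.679 and 0.822 in saline lungs and at 1.02, 0.702 and 0.777 in rhTM lungs. The log2 fold change was 0.14 (standard error 0.17, 95% confidence interval -0.27 to 0.56), 0.20 by the table (standard error 0.16, adjusted p = 0.578) and -0.01 without rhTM replicate 1. Its second probe gave 0.06 (standard error 0.18). On rhTM replicate 1 Cxcr4 was 1.38 times and the summed level of 7 endothelial markers 1.42 times the median of the other arrays. Cldn5 made up most of that sum, at 93.7 of 147. On that array Cldn5, Cdh5 and Kdr were at their highest, and Pecam1, Tek and Tie1 at their lowest. The sums were 98.5 to 119 in saline lungs and 103 to 147 in rhTM lungs, with a higher mean for 4 of 7 genes, or 2 of 7 in the table, where 3 of 7 were without overlap and lower, as were 12% of all genes. Their part in the Cxcr4 value was not tested.

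Ackr1, the Duffy antigen, was at 3.13, 3.27 and 4.05 in saline lungs and at 5.48, 3.09 and 3.26 in rhTM lungs. The groups overlapped, since rhTM replicate 1 was the highest array, rhTM replicate 3 lay inside the saline range and rhTM replicate 2 just below it. The log2 fold change was 0.14 (standard error 0.24, 95% confidence interval -0.44 to 0.72) and 0.15 by the table (standard error 0.24, adjusted p = 0.786), and -0.13 without rhTM replicate 1. Its second probe gave 0.03 (standard error 0.28). The summed level of erythroid markers, 4 of 6 tested, was 1.34 times the median of the other arrays on rhTM replicate 1, and that of venular endothelial markers 0.734 times. The erythroid sums were 600 to 783 in saline lungs and 598 to 875 in rhTM lungs, higher in the mean for 4 of 4 genes, and the venular sums were 47.2 to 63.1 and 40.2 to 55.4, higher for 4 of 6, among them Nr2f2 at 0.21 without overlap (2.95% of all genes), though it overlapped in the table, at 0.08. In the table the erythroid sums did not overlap, at 597 to 649 and 677 to 874, of which Hba-a1 made up most. There 2 of the 4 erythroid genes, Hba-a1 and Slc4a1, were without overlap and higher, where 9.68% of all genes were so, while Hbb-bt and Alas2 overlapped. Of the venular genes 2 of 6 had a higher mean in the table. Their part in the Ackr1 value was not tested.

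Most members were extreme on the same array. The array of rhTM replicate 1 was the highest of the 6 for 5 members (Cxcl2, Cxcl3, Cxcl14, Cxcr4 and Ackr1) and the lowest for 2 (Cxcl1 and Cxcl15). It was the highest or lowest array for 56.4% of all genes, so that 7 of 10 members stand against a high background. The spread within groups was wide for most members. The residual SD of Cxcl3 was larger than that of 98.4% of all genes, and Cxcl15, Cxcl14, Cxcl2, Cxcl5 and Cxcl1 stood between 92.9% and 96.3%. Cxcr4 stood at 54.8% and Cxcl12 at 69.4%.

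**Figure D3:**
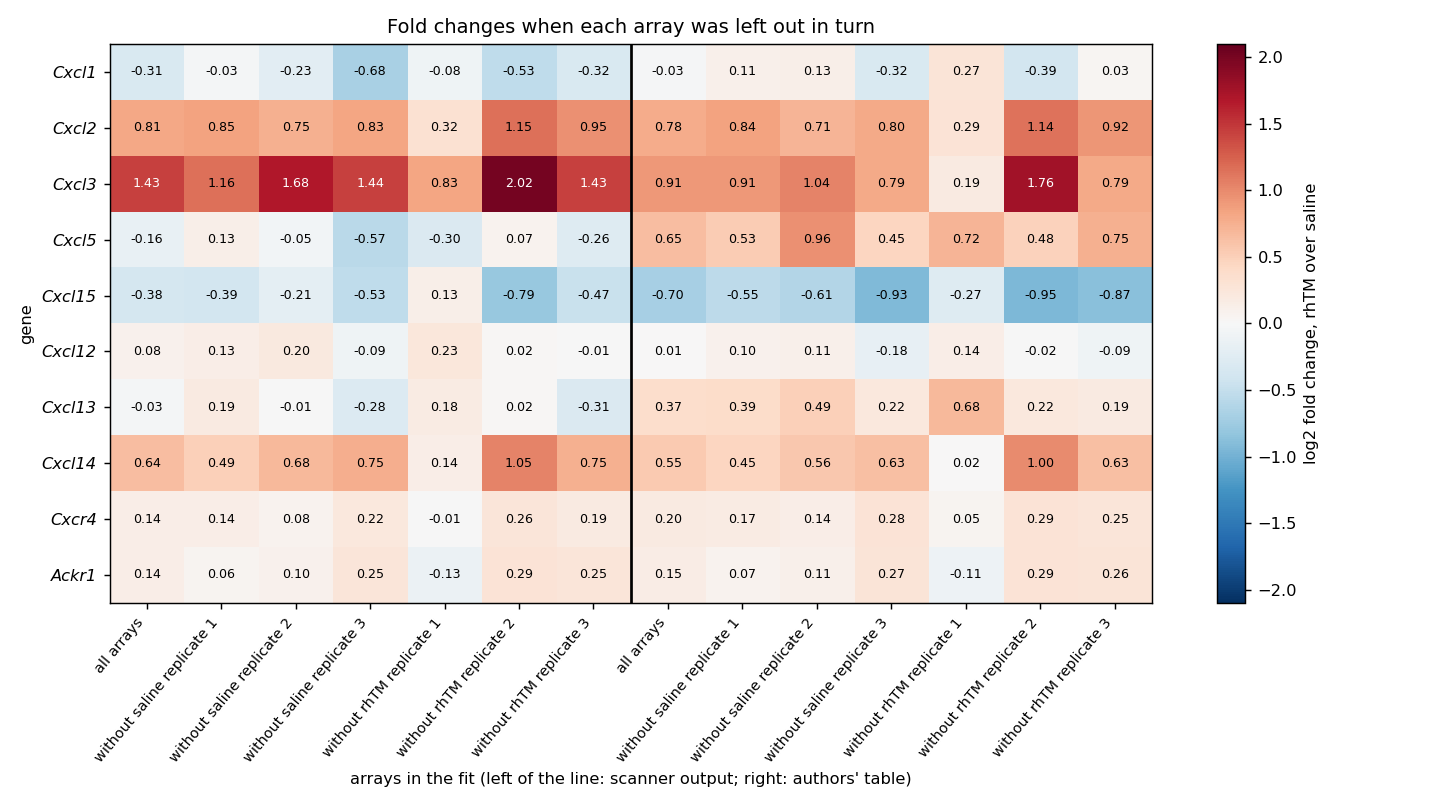
Log2 fold change of each gene, rhTM over saline (colour and printed value), with all arrays and with each array left out in turn, by the scanner output (left of the line) and by the authors' table (right). Cxcl2, Cxcl3 and Cxcl14 stayed above 0 in all 14 columns and were lowest, within each side of the line, without rhTM replicate 1, whereas Cxcl5 and Cxcl13 lay above 0 in every column of the table.

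The differences within slides changed sign between the 2 slides for Cxcl5 and Cxcl13, and not for the other members. The share of all genes that kept their sign was not computed. Slide 2 sets 1 array against 1, and its saline array is an exchanged one. On slide 1, with 2 arrays of each group, rhTM lungs exceeded saline lungs by 1.17 for Cxcl3, 1.00 for Cxcl2 and 0.60 for Cxcl14 on the log2 scale. On slide 2, with 1 array of each, the same differences were 1.94, 0.43 and 0.73. The difference of Cxcl1 was -0.04 on slide 1 and -0.85 on slide 2, and that of Cxcl5 0.03 and -0.54. For Cxcl13 it was -0.08 and 0.07. With the slide as a block the adjusted p of the members was at least 0.920 for the scanner values (limma). In the table, where such a block leaves rhTM replicate 1 as the sole rhTM array set against saline, the values were 2.36 for Cxcl3, 1.61 for Cxcl14 and -1.55 for Cxcl15 (adjusted p = 0.108, 0.0531 and 0.0554 from limma), and 0.67 for Ackr1, 0.48 for Cxcr4 and -0.63 for Cxcl1.

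Other genes of the CXC system and the genes that induce or restrain ELR transcripts were described by count. Of 7 other CXC ligands 6 were tested, and 4 had a higher mean with rhTM, with a median log2 fold change of 0.06, or 0.09 in the table. Their groups overlapped throughout. Of 8 other receptors 7 were tested, 3 had a higher mean, and the median was -0.02, or 0.02 in the table. Ackr3, a scavenger receptor of CXCL12, was the one without overlap, at 18.0, 19.9 and 20.2 in saline lungs and at 42.8, 20.5 and 27.5 in rhTM lungs. Its log2 fold change was 0.58 (standard error 0.26, adjusted p = 0.99994 from limma), and by the table its groups overlapped, with 0.45. That is 1 of 7 receptors, where 2.95% of all genes were without overlap and higher. Cxcr2, the receptor of most ELR chemokines, had a log2 fold change of -0.02 (standard error 0.12) and -0.08 by the table, with levels from 2.01 to 2.35 on all arrays.

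Of 12 inducers and brakes 11 were tested, 7 had a higher mean, the median log2 fold change was 0.02 and their groups overlapped by the scanner output. Nfkbia, which encodes the NF-κB inhibitor IκBα, had a log2 fold change of 0.16 (standard error 0.17) and 0.018 by the table. Il6 and Csf3, cytokines induced along with ELR chemokines, were free of overlap by the table alone, with log2 fold changes of 1.21 and 1.05 (adjusted p = 0.313 and 0.321 from limma) against 0.45 and 0.77 by the scanner output. In the table, then, 2 of 11 genes were without overlap and higher, where 9.68% of all genes were so, and 12% were without overlap and lower. Of the 10 members, 0 were without overlap there. Of the 14 genes with the 11-letter match, 9 were tested, 3 had a higher mean with rhTM (Cxcl2, Cxcl3 and Hpn), and the middle value of their log2 fold changes was -0.15. Cxcl2, on whose promoter the letters were chosen, was the sole gene of the 9 without overlap, against 2.95% of all genes as higher and 2.57% as lower.

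**Figure D4:**
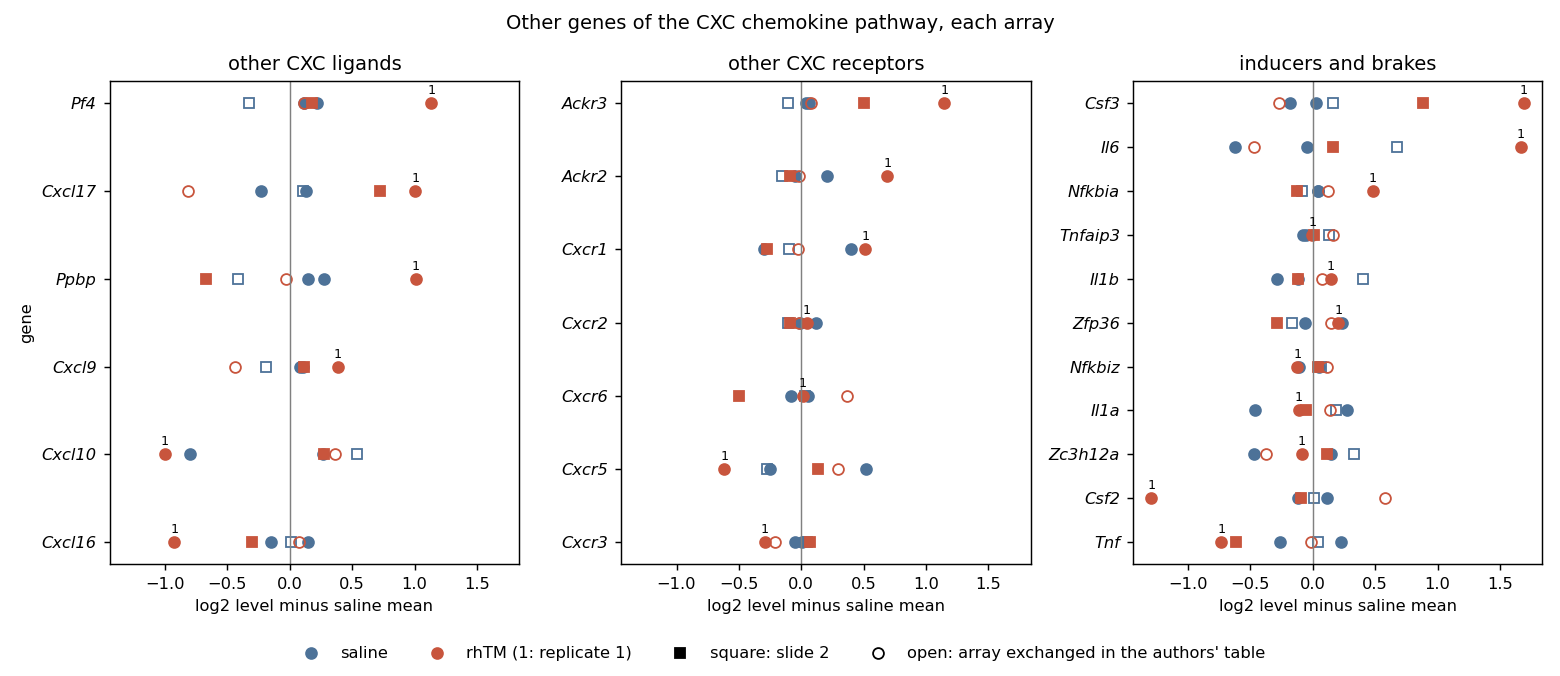
Log2 level on each array minus the mean of the 3 saline arrays, for other CXC ligands, other CXC receptors and the inducers and brakes of ELR transcripts (blue, saline; red, rhTM, with replicate 1 numbered; squares, slide 2; open symbols, the 2 exchanged arrays). Ackr3 was the sole gene of the 3 panels whose red points all lay to the right of its blue points. The point of rhTM replicate 1 was at an end of the row for most genes shown, as that array was for 56.4% of all genes.

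Markers of neutrophils, the cells that ELR chemokines attract, were compared in the same lungs. Of 14 genes 13 were tested, among them the calprotectin subunits S100a8 and S100a9, and 10 had a higher mean with rhTM, with 0 of 13 without overlap and a median of 0.05 for their log2 fold changes. Their summed level ranged from 1068 to 1257 in saline lungs and from 1092 to 1417 in rhTM lungs. In the table, 11 of 13 were higher, 3 of them (S100a8, S100a9 and Mpo) without overlap, where 46% of all genes were higher and 9.68% were higher without overlap, and the sums ranged from 1068 to 1196 and from 1242 to 1417. On rhTM replicate 1 the sum was 1.18 times the median of the other arrays, and its part in the levels of Cxcl2 and Cxcl3 was not tested. Elane, the neutrophil elastase gene, was at 21.0 and 19.5 on the arrays of slide 2 and at 1.38 to 1.73 on the others. The sum of the macrophage markers, 8 of 8 tested, was 1.04 times the median of the other arrays on rhTM replicate 1. Of these genes 5 of 8 had a lower mean with rhTM by the scanner output and 7 of 8 in the table.

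The genes whose levels followed a member most closely over the 6 arrays were Prss48, Sdha and Pfdn6 for Cxcl1, with Pearson's r of 0.987, 0.983 and 0.980 and Spearman's rho of 0.943, 1 and 0.943. For Cxcl13 they were Nkx2-1, Pphln1 and Trim27, with r of 0.992, 0.992 and 0.991 and rho of 0.943, 0.943 and 1. With 6 arrays an r above 0.9 was reached by 174 genes for Cxcl1 and by 522 for Cxcl13, so these neighbours are given as a description of these arrays.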

How the data were processed

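RNA from the lungs of 6 LPS-challenged mice, 3 per treatment, was hybridised to Agilent SurePrint G3 Mouse arrays. The authors deposited the Feature Extraction 10.7.3.1 output of each array, giving for each spot a linear, background-corrected intensity, and a table of intensity values of the same arrays. Groups were taken from the labels. Depth has no counterpart on arrays. P-values measure the spread between 3 mice a group. The members and gene lists were chosen with earlier results of these data known.

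Spots of a probe were averaged, and 398 of 56605 probes with outlier spots only on some array were dropped. The log2 intensity was scaled by subtracting each array's 75th percentile. Accessions without version were matched to RefSeq genes of GRCm38.p6 (32994 probes). The brightest probe stood for its gene and was tested where it exceeded background on every array of either group. Groups were compared with limma 3.58.1 in R 4.3.3 (lmFit, eBayes), adjusting p-values over all genes by Benjamini-Hochberg (threshold 0.05), and single genes by an exact permutation test. Standard errors and intervals are limma's. The fit was tested on simulated data. Genes named were the members, list genes without overlap or tied to a result, and the 3 genes most like Cxcl1 and Cxcl13. Probe sequences were not used here, so cross-hybridisation between related chemokines was not examined. Hpn, Elane, Il6, Csf3, Scgb1a1, Dcn and Lum were named after their values were seen. So were the endothelial and erythroid genes and the 3 neutrophil markers without overlap in the table. Tables and figures were made in Python 3.11.15. Alternatives (normexp on median signals with offset 50, other scalings, filters, probes, blocks, arrays and the methods' t-test) are given in the closing section. Leaving arrays out of the authors' table, and its fit with the slide as a block, were chosen after seeing the data.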

Additional observations from a re-analysis of the deposited data

How the results depend on the processing

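After adjustment 0 members passed except when the slide was a block in the fit of the table, where 432 genes and 1 member (Cxcl2, 1.77) were called, 4577 genes had an unadjusted p under 0.05, 0 members were without overlap, Cxcl5 was at 0.51 and Cxcl12 at -0.26. Slide 2 of the table holds no saline array, so rhTM replicate 1 alone sets the group difference in that fit. The directions of Cxcl2, Cxcl3 and Cxcl14 held under all 24 alternatives run for them. Some of these could not change a direction. In the scanner fits the other filters, the slide or replicate block, the mean of probes and the methods' t-test left these 3 values as they were. The authors' table turned the log2 fold change of Cxcl5 to 0.65 and of Cxcl13 to 0.37, with 2278 genes at an unadjusted p under 0.05 (305 by the scanner output) and 0 members without overlap (21.7% of all genes, with or without the slide). Without both exchanged arrays they were 0.36 and 0.25, with 1 gene called, 1267 at that p and 3 members without overlap (41.5% of all genes). Normexp gave 197 genes and 0 members without overlap (5.59% of all genes), and no filter 488 genes. Quantile scaling gave 295 genes, the percentile of probes above background 328, the filter on all arrays 247, the mean of probes 342 and second probes 305, each with 0 genes called and 1 member without overlap. The cause of these shifts was not tested.

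Leaving out each array in turn, scanner output gave 0 to 3 genes called (3 without saline replicate 1, 2 without rhTM replicate 1), 225 to 1403 at the unadjusted p and 1 to 3 members without overlap (8.96% to 24.5% of all genes). The table gave 0 to 592 called (592 without rhTM replicate 1, which leaves all saline arrays on slide 1 and both rhTM arrays on slide 2), 1162 to 4225 and 0 to 3 (26.8% to 46.1% of all genes). Log2 fold changes then ranged, by the scanner output and then the table, from -0.68 to -0.03 and -0.39 to 0.27 for Cxcl1, 0.32 to 1.15 and 0.29 to 1.14 for Cxcl2, 0.83 to 2.02 and 0.19 to 1.76 for Cxcl3, 0.14 to 1.05 and 0.02 to 1.00 for Cxcl14, -0.57 to 0.13 and 0.45 to 0.96 for Cxcl5, -0.79 to 0.13 and -0.95 to -0.27 for Cxcl15, -0.09 to 0.23 and -0.18 to 0.14 for Cxcl12, -0.31 to 0.19 and 0.19 to 0.68 for Cxcl13, -0.012 to 0.26 and 0.05 to 0.29 for Cxcr4, and -0.13 to 0.29 and -0.11 to 0.29 for Ackr1. Cxcl13 then came nearest to the threshold, at an adjusted p of 0.0975 (limma) in the table without rhTM replicate 1, a fit in which group and slide cannot be told apart.

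Mouse numbers did not pair the arrays, as deviations of same-numbered arrays correlated at -0.30, 0.44 and -0.45. With the replicate block 0 genes were called and 376 had an unadjusted p under 0.05, and the methods' t-test gave 0 and 339. Neither changed a member's call after adjustment, but Cxcl3 no longer had an unadjusted p under 0.05 in either.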
